A study of Mus musculus with 32 samples.

Results

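The BCL2 family genes described here are 10 of the 22216 genes listed in each library: Bcl2, Bcl2l1, Mcl1, Bcl2a1b and Bcl2a1d, which code for proteins that keep cells alive, Bcl2l11, Bid and Pmaip1, which code for BH3-only proteins, and Bax and Bak1, which code for the effectors of cell death. They were picked by gene symbol, and earlier results of these data were known when they were chosen. Expression was read by RNA sequencing in dendritic cells grown for 9 days from C57BL/6 mouse bone marrow with GM-CSF, and is given as RPKM, a read count scaled to gene length and library size. The dKO cells carry the genotype Lmp7-/-Mecl1-/-, so they lack 2 catalytic subunits of the immunoproteasome, encoded by Psmb8 and Psmb10; the WT cells are labelled Wild Type. Lipopolysaccharide (LPS), a bacterial product that matures dendritic cells, was present at 1 µg/mL for 1, 2 or 6 h before harvest, and cells at 0 h had none. Each of the 8 groups of genotype and time holds 4 libraries. The labels do not say whether these came from separate mice or cultures, so p-values measure the spread between libraries, which may be technical.

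Libraries held 1.27 to 1.87 Gb aligned to genes, as far as a deposited column without a header can be read as aligned bases, and 11154 genes, all 10 members among them, passed the filter of 1 RPKM in 4 libraries. Psmb8 stood at most at 7.42 RPKM in dKO libraries and at least at 150.3 RPKM in WT libraries. Psmb10 ranged from 2.37 to 17.1 RPKM in dKO libraries and from 41.6 to 131 RPKM in WT libraries. By correlation over the tested genes, all 16 WT and 11 dKO libraries lay nearest to the WT mean of their own time, and 5 dKO libraries lay nearest to another: 0 h replicate 2 (nearest to 1 h), 1 h replicate 2 (2 h), 2 h replicate 2 (0 h), 2 h replicate 4 (6 h) and 6 h replicate 4 (2 h). Within replicate 2 the labels 0, 1 and 2 h thus lie nearest to 1, 2 and 0 h, and within replicate 4 the labels 2 and 6 h nearest to 6 and 2 h; whether labels were exchanged was not tested. They are kept as labelled, and tests that involve dKO are given with and without them, which leaves 3, 3, 2 and 3 dKO libraries at 0, 1, 2 and 6 h. The 5 libraries were picked from the same values that are tested, the members among them, so p-values without them depend on that choice. Of 6 dendritic cell markers, 5 were at 1 RPKM or more in every library and Flt3 ranged from 0.105 to 2.00 RPKM. Of 7 granulocyte markers 6 were listed, with a summed level of 198 to 398, 350 to 438, 223 to 386 and 214 to 391 RPKM in dKO at 0, 1, 2 and 6 h, against 551 to 706, 818 to 1231, 892 to 1158 and 406 to 619 RPKM in WT. Of 6 macrophage markers 5 were listed, with a summed level of 538 to 744, 518 to 579, 522 to 707 and 474 to 530 RPKM in dKO at 0, 1, 2 and 6 h, against 669 to 737, 451 to 535, 456 to 512 and 288 to 399 RPKM in WT. The groups did not overlap at 2 and 6 h. Of 3 mast cell markers, all listed, the summed level was 0.548 to 2.16, 1.21 to 3.57, 1.05 to 4.18 and 2.09 to 3.60 RPKM in dKO, against 2.33 to 4.88, 5.42 to 9.51, 4.22 to 6.59 and 3.71 to 6.97 RPKM in WT, and was lower in dKO without overlap at all 4 times. Markers of B, T and NK cells and fibroblasts reached at most 1.25 RPKM each. The part of these other cells in the results below was not tested, and in bulk RNA fewer cells of a type cannot be told apart from less RNA per cell.

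The family sets whether a cell keeps its mitochondria intact. The pro-survival proteins BCL-2, BCL-XL (from Bcl2l1), MCL-1 and A1 (from the Bcl2a1 copies) hold BAX and BAK in check and bind BH3-only proteins such as BIM (from Bcl2l11), NOXA (from Pmaip1) and BID. Free BAX and BAK form pores in the outer mitochondrial membrane, which release the factors that start the caspase cascade. In dendritic cells and other myeloid cells, Bcl2l1 and the Bcl2a1 genes are known targets of NF-κB, the transcription factor switched on by LPS, while NOXA binds MCL-1 and A1, and BIM binds all of the pro-survival proteins.

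Sequence bears on how the values can be read. A first set shows how alike the A1 copies are, since reads that match several copies cannot be placed. The first 120 coding bases of Bcl2a1b (chr9:89199360-89199479, plus strand), Bcl2a1d (chr9:88731600-88731719, minus strand) and Bcl2a1a (chr9:88957051-88957170, plus strand) on GRCm38 follow, 5′ to 3′, with the positions at which the 3 copies differ in capitals.
Bcl2a1b: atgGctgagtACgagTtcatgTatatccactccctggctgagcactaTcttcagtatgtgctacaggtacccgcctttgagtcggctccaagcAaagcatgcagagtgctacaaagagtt
Bcl2a1d: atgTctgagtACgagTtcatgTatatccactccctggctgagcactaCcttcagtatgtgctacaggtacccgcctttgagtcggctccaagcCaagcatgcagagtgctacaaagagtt
Bcl2a1a: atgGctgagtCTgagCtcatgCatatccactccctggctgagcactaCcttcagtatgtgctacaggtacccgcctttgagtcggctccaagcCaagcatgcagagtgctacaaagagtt
Bcl2a1b and Bcl2a1d differed at 3 of these 120 bases and at 6 of all 519 coding bases, an identity of 98.8%. Of all stretches of 100 bases in the Bcl2a1b transcript, 31.1% occur letter for letter in another of the 3 copies, against 54.7% for Bcl2a1d and 43.5% for Bcl2a1a. How reads shared between copies were counted is not given in the sources used here, so the split between copies is uncertain, while a change in all copies at once does not depend on it.

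The second is the start of Bcl2l1, the member with the largest rise under LPS in WT. Windows from 250 bases before to 50 bases after each RefSeq gene start (GRCm38.p6) were searched on both strands for the NF-κB consensus, a motif of 10 letters. It was found in 1 of 12 windows of 9 members and in 1480 of all 32851 windows (4.51%). The match lies at the upstream end of 1 of 3 Bcl2l1 windows, 242 to 233 bases before the start, and stands in capitals in the 250 bases before that start (chr2:152830718-152830967, minus strand).
Bcl2l1: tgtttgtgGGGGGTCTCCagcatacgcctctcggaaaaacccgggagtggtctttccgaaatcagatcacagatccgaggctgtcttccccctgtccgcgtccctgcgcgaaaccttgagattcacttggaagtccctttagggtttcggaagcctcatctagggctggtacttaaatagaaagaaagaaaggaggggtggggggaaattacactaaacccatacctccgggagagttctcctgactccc
A match of letters does not show that a factor binds there, and no match in a window says only that these letters are not in it.

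At rest, the A1 copy Bcl2a1b and Mcl1 were the most abundant members and Bcl2 the least. In dKO at 0 h without its library nearest to another time, the mean levels ran from Bcl2a1b (231 RPKM) over Mcl1 (206), Bax (90.4), Bcl2a1d (70.3), Bak1 (60.3), Bcl2l1 (27.0), Bcl2l11 (24.5), Bid (14.6) and Pmaip1 (10.8) to Bcl2 (2.94). In WT at 0 h they ran from Bcl2a1b (283 RPKM) over Mcl1 (230.3), Bax (104), Bcl2a1d (94.5), Bak1 (62.3), Bcl2l1 (28.1), Bcl2l11 (24.4), Pmaip1 (20.5) and Bid (15.8) to Bcl2 (2.53). RPKM is scaled to gene length, so these levels can be compared between genes, except that the levels of the A1 copies rest on how their shared reads were split. In both genotypes at 0 h the only neighbours whose libraries overlapped were Bcl2l1 and Bcl2l11, and Bid and Pmaip1 had changed places.

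After 2 h of LPS the order was another. In WT, Bcl2a1b (994 RPKM), Bcl2a1d (331) and Bcl2l1 (300.3) stood above Mcl1 (106), and Bcl2a1d overlapped Bcl2l1. In the 2 remaining dKO libraries at 2 h, Bcl2a1b (878 RPKM) and Bcl2a1d (277) led, and Bcl2l1 (129) overlapped Mcl1 (111). At 6 h Mcl1 was in second place in dKO (219.5 RPKM), while in WT it stood below both A1 copies (204 RPKM), overlapping Bcl2a1d (244).

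**Figure D1:**
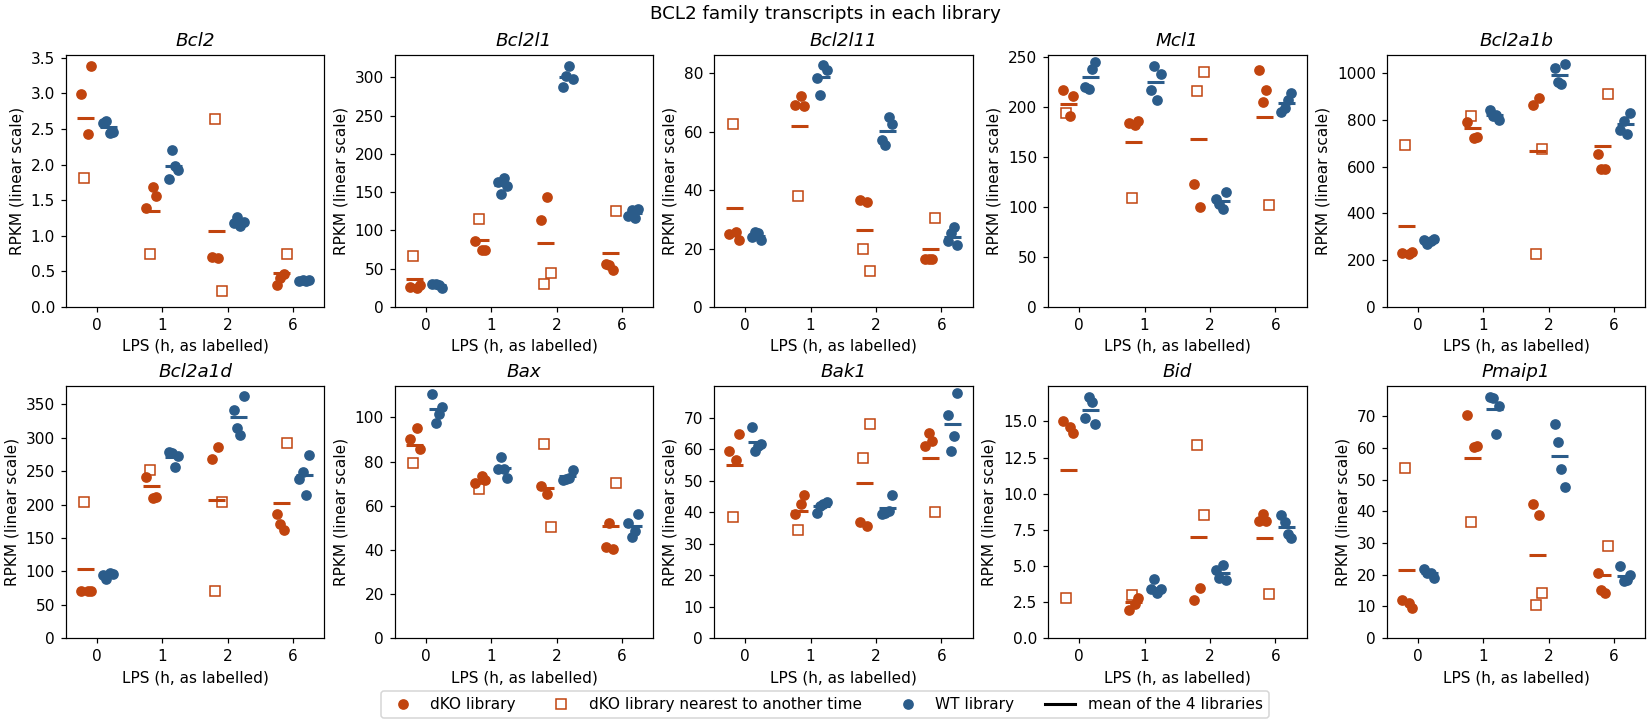
RPKM of the 10 members in each library (linear axes that start at 0), by hours of LPS as labelled, dKO in orange and WT in blue; open squares are the 5 dKO libraries nearest to another time, and horizontal lines are means of 4 libraries. WT libraries of a group sit close together, filled dKO points follow the WT course at a lower level for Bcl2l1 after LPS, and the open squares stand apart from their groups, such as 694 RPKM of Bcl2a1b at 0 h.

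Under LPS in WT cells the A1 copies, Bcl2l1, Bcl2l11 and Pmaip1 rose at 1 and 2 h. Most genes were called in these contrasts, so the count of members called says little about the family. The test called 8 of 10 members at 1 h, 10 at 2 h and 6 at 6 h, where it called 52.3%, 79.7% and 75.8% of all tested genes. Split by direction, 5, 5 and 3 members rose and 3, 5 and 3 fell at 1, 2 and 6 h. Of all tested genes 6.84%, 11.2% and 14.9% rose and 45.5%, 68.5% and 60.9% fell. The median log2 change of the members was 0.74, 0.39 and -0.04, that of all tested genes -0.42, -0.73 and -0.65. Thus the middle gene of all tested fell in RPKM, and median-of-ratios scaling, which sets the median of all genes near 0, is given beside such values. With that scaling 15 of 19 member calls in WT over the 3 times were rises, against 13 of 24 in RPKM. It called 28.3%, 61.8% and 66.5% of all tested genes. Of all 11154 tested genes, 1681, 3427 and 3638 then rose and 1471, 3465 and 3774 fell at 1, 2 and 6 h.

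In dKO cells as labelled, the test called 8, 5 and 6 members at 1, 2 and 6 h of LPS, where it called 49.9%, 62.9% and 74.9% of all tested genes. Of these 19 calls 11 were rises, against 13 of 16 with median-of-ratios scaling, which called 24%, 40.6% and 65.5% of all tested genes. Of all 11154 tested genes, 649, 1023 and 1635 rose and 4916, 5998 and 6715 fell in RPKM. With median-of-ratios scaling 1423, 2461 and 3536 rose and 1254, 2064 and 3769 fell. Without the 5 libraries the test called 9, 10 and 8 members, against 77.3%, 86.1% and 87.3% of all tested genes. Then 5, 5 and 4 members rose, against 9.49%, 13.8% and 18.8% of all tested genes, and 4, 5 and 4 fell, against 67.8%, 72.3% and 68.5%.

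Between the genotypes, the calls fell on members that were lower in dKO, most of them after LPS. With all libraries as labelled, limma called 0 members at 0, 1 and 6 h (0, 2 and 1 at an unadjusted p under 0.05), where it called 6.84%, 10.9% and 14.8% of all tested genes. At 2 h it called Bcl2l1, Bcl2l11 and Pmaip1, all lower in dKO, where it called 12.4% of all tested genes, 7.24% as lower. Without the 5 libraries it called 3, 6, 7 and 5 members at 0, 1, 2 and 6 h, all lower in dKO, where it called 26.2%, 39.2%, 33.1% and 46.9% of all tested genes and 19.4%, 29.4%, 23.8% and 33% as lower. With median-of-ratios scaling as well, it called 3, 2, 6 and 5 members, where it called 22.8%, 34.8%, 33.2% and 42.6% of all tested genes. Of these 16 calls 2, Mcl1 at 2 and 6 h, were higher in dKO. Of all 11154 tested genes, 1160, 1944, 2041 and 2542 were then called higher in dKO and 1388, 1940, 1663 and 2211 lower. The median log2 change of the members without the 5 libraries was -0.13, -0.23, -0.37 and -0.21 at the 4 times, and that of all tested genes was -0.06, -0.11, -0.09 and -0.12. With all libraries the members had -0.11, -0.38, -0.55 and -0.22, and all tested genes -0.19, -0.18, 0.09 and -0.15.

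**Figure D2:**
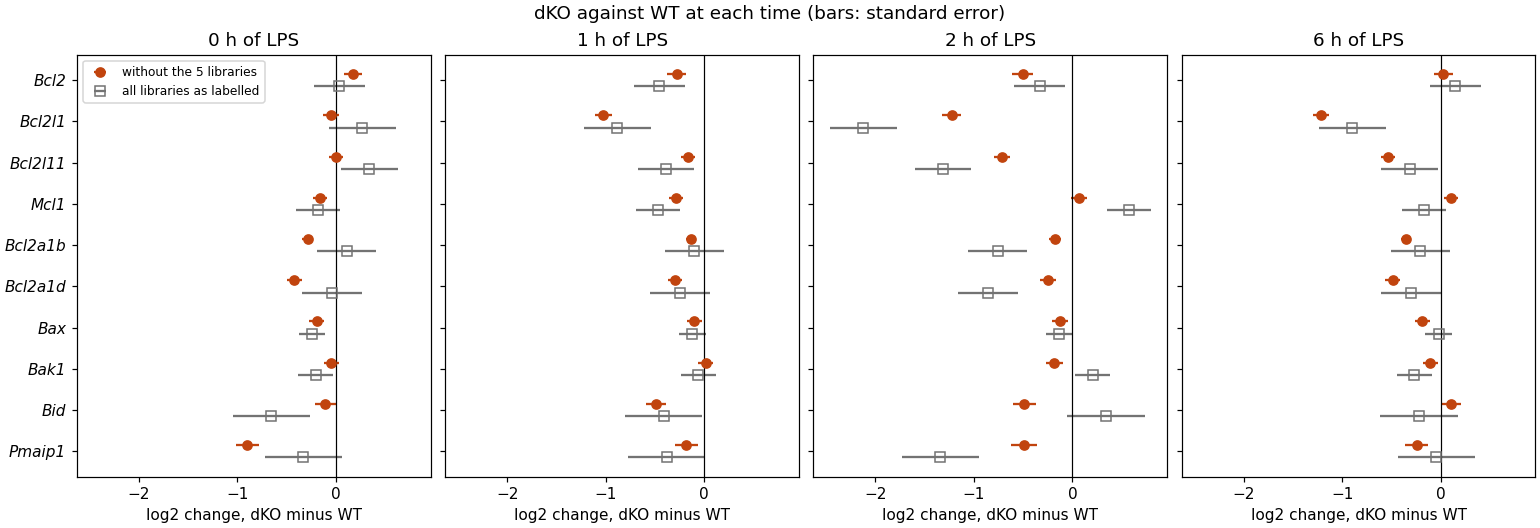
Log2 change of each member, dKO minus WT, at 0, 1, 2 and 6 h of LPS, with the standard error as a bar; filled circles leave out the 5 libraries nearest to another time, and open squares use all libraries as labelled. Bcl2l1 lies near 0 at 0 h (-0.06 without the 5 libraries) and between -1.23 and -1.02 at the later times, and Pmaip1 is lowest at 0 h (-0.90) without them but at 2 h (-1.34) with all libraries.

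The difference of LPS responses, dKO response minus WT response, asks whether a member moved by another amount in dKO. With all libraries limma called Bcl2l1 at 2 h and 0 members at 1 and 6 h (1 and 1 at an unadjusted p under 0.05), where it called 0.305%, 0.0359% and 0.923% of all tested genes at 2, 1 and 6 h. Without the 5 libraries it called 2, 3 and 3 members at 1, 2 and 6 h, where it called 1.8%, 5.62% and 20.3% of all tested genes. Bcl2l1 was called at all 3 times, Bcl2l11 at 2 and 6 h, Bcl2 at 2 h (-0.68 ± 0.14, adjusted p = 0.00431, against -0.37 ± 0.37 and 0.56 with all libraries), and Pmaip1 at 1 and 6 h with a larger rise in dKO.

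Bcl2l1 (mm9 chromosome 2, 152606404 to 152657418), which codes for the pro-survival protein BCL-XL, rose with LPS in both genotypes and was lower in dKO after LPS. At 0 h it had 26.7, 67.0, 25.3 and 29.0 RPKM in dKO (replicates 1 to 4), against 29.5, 30.1, 28.4 and 24.6 RPKM in WT. At 1 h it had 86.9, 115, 73.9 and 74.2 RPKM in dKO, against 164, 148, 168 and 158 RPKM in WT. Thus the groups overlapped at 0 h, where replicate 2 of dKO, nearest to 1 h, stood above all others, and did not overlap at 1 h. At 2 h the dKO libraries held 114, 30.0, 144 and 44.5 RPKM, against 287, 301, 315 and 298 RPKM in WT, and at 6 h 55.6, 55.2, 48 and 126 RPKM, against 119, 127, 117 and 128 RPKM in WT. Every dKO library at 2 h lay below every WT library, and at 6 h replicate 4 of dKO, nearest to 2 h, was the only one within the WT range.

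The fitted log2 change of Bcl2l1, dKO minus WT, was 0.27 ± 0.34, -0.88 ± 0.34, -2.12 ± 0.34 and -0.90 ± 0.34 at 0, 1, 2 and 6 h (limma adjusted p = 0.672, 0.0991, 6.61e-05 and 0.0773). Without the 5 libraries it was -0.06 ± 0.08, -1.02 ± 0.08, -1.23 ± 0.09 and -1.21 ± 0.08 (limma adjusted p = 0.683, 5.86e-10, 3.48e-10 and 2.4e-11), which puts dKO at 0.492, 0.427 and 0.433 of WT at 1, 2 and 6 h. Bcl2l1 was thus called lower in dKO at 1, 2 and 6 h without these libraries. With them it was called at 2 h alone, though the groups did not overlap at 1 h either. Leaving out dKO 6 h replicate 4 alone brought the call at 6 h (adjusted p = 0.0182). With median-of-ratios scaling beside the removal the 3 changes were -0.89, -1.09 and -1.07.

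As an LPS response, Bcl2l1 rose in WT by 2.48 ± 0.34, 3.40 ± 0.34 and 2.11 ± 0.34 on the log2 scale at 1, 2 and 6 h (limma adjusted p = 2.57e-05, 1.16e-07 and 5.45e-06). In dKO it rose by 1.33, 1.00 and 0.94 with all libraries (± 0.34 each, adjusted p = 0.00685, 0.015 and 0.0149), and by 1.52, 2.22 and 0.96 without the 5. The dKO rise at 2 h was lost without dKO 0 h replicate 3 (adjusted p = 0.0529), 2 h replicate 1 (0.0734) or 2 h replicate 3 (0.101), and that at 6 h without 0 h replicate 3 (0.054) or 6 h replicate 4 (0.0944). The difference of responses was -1.15 ± 0.48, -2.39 ± 0.48 and -1.17 ± 0.48 with all libraries (adjusted p = 1, 0.0211 and 0.401) and -0.97 ± 0.11, -1.17 ± 0.12 and -1.15 ± 0.11 without the 5 (adjusted p = 9.89e-06, 1.01e-06 and 1.33e-07). With all libraries the call at 2 h was lost without WT 0 h replicate 4 (adjusted p = 0.0559), WT 2 h replicate 3 (0.0525) or dKO 0 h replicate 2 (0.0609).

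Bcl2a1b (mm9 chromosome 9, 89094111 to 89102676) and Bcl2a1d (mm9 chromosome 9, 88618126 to 88626688) code for 2 copies of the pro-survival protein A1, and both rose with LPS in both genotypes. Bcl2a1b at 0 h had 233, 694, 227 and 234 RPKM in dKO, against 286, 269, 284 and 292 RPKM in WT. At 2 h it had 864, 229, 892 and 677 RPKM in dKO, against 1023, 960.5, 954 and 1038 RPKM in WT. Apart from the libraries nearest to another time (0 h replicate 2, 2 h replicates 2 and 4), dKO lay just below WT at both times with no overlap. At 1 h the dKO libraries had 793, 817, 724 and 726 RPKM, against 844, 815, 821 and 800.2 RPKM in WT, and at 6 h 656, 590, 590 and 910 RPKM, against 756, 798, 741 and 831 RPKM in WT.

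In WT the rise of Bcl2a1b was 1.54 ± 0.30, 1.81 ± 0.30 and 1.46 ± 0.30 on the log2 scale at 1, 2 and 6 h (limma adjusted p = 0.000459, 1.25e-05 and 0.000101), and that of Bcl2a1d was 1.52, 1.8 and 1.36 (± 0.31 each). In dKO without the 5 libraries the rises were 1.69, 1.92 and 1.40 for Bcl2a1b and 1.64, 1.97 and 1.29 for Bcl2a1d. The differences of these responses, 0.15, 0.11 and -0.06 for Bcl2a1b and 0.13, 0.17 and -0.07 for Bcl2a1d, were not called (limma adjusted p = 0.454 to 0.753), nor were those with all libraries (0.271 to 1). With all libraries as labelled the dKO rises were 1.33, 0.95 and 1.15 for Bcl2a1b and 1.31, 0.99 and 1.10 for Bcl2a1d, all called, and that of Bcl2a1b at 2 h was lost without dKO 2 h replicate 3 (adjusted p = 0.054), as was that of Bcl2a1d (0.0513).

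Both copies were slightly lower in dKO once the 5 libraries were left out. The log2 change of Bcl2a1b, dKO minus WT, was then -0.29 ± 0.05, -0.13 ± 0.05, -0.18 ± 0.06 and -0.35 ± 0.05 at 0, 1, 2 and 6 h (limma adjusted p = 0.000195, 0.0477, 0.0259 and 8.32e-06), and that of Bcl2a1d -0.42, -0.30, -0.25 and -0.49 (adjusted p = 8.09e-05, 0.00206, 0.0198 and 6.42e-06). With median-of-ratios scaling as well, both remained called at 0 and 6 h alone, with -0.21 and -0.21 for Bcl2a1b and -0.34 and -0.34 for Bcl2a1d. With all libraries neither was called at any time (adjusted p = 0.0655 to 0.952), and leaving out dKO 2 h replicate 1 or 3 alone brought both calls at 2 h (adjusted p = 0.0415 and 0.0321 for Bcl2a1b, 0.0287 and 0.0194 for Bcl2a1d). Replicates 1 and 3 are the dKO 2 h libraries nearest to their own time, so those nearest to 0 h and 6 h then made up most of the group. Granulocyte and mast cell markers were also lower in dKO, and their part in these differences was not tested.

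Within a library the ratio of Bcl2a1b to Bcl2a1d RPKM stayed between 2.86 and 3.64 in all 32. At 0 h it was 3.30, 3.40, 3.23 and 3.34 in dKO, against 3.02, 3.01, 2.91 and 3.03 in WT, so the groups did not overlap. Library scaling cancels in such a ratio. An exact permutation test, two-sided, gave p = 0.0286 at 0 h and at 1 h, the smallest that 4 against 4 libraries allow, and p = 0.0571 and 0.229 at 2 and 6 h. Adjusted over 12 tests, 3 ratios at 4 times, these are 0.0857, 0.0857, 0.137 and 0.392, so none passed. With the 5 libraries left out p was 0.0571, 0.0571, 0.267 and 0.114. The ratios were chosen after their values were seen.

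Mcl1 (mm9 chromosome 3, 95462643 to 95467101) codes for MCL-1, a short-lived pro-survival protein. At 0 h it had 217, 194, 190 and 210.5 RPKM in dKO, against 220.1, 218, 238 and 245 RPKM in WT. At 2 h it had 123, 216, 99.9 and 235 RPKM in dKO, against 108, 103, 98.1 and 115 RPKM in WT. The 2 high dKO libraries at 2 h are those nearest to 0 h and 6 h, and the other 2 lay near WT. At 1 h the range was 109 to 186 RPKM in dKO and 207 to 241 RPKM in WT, and at 6 h 102 to 237 RPKM in dKO and 195 to 214 RPKM in WT.

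In WT, Mcl1 fell at 2 h by 1.12 on the log2 scale (SE 0.22, limma adjusted p = 7.52e-05) but by 0.33 with median-of-ratios scaling (adjusted p = 0.15). At 6 h its change was -0.18 (adjusted p = 0.471), and 0.51 with that scaling (adjusted p = 0.0233), so the sign at 6 h rests on the scale. In dKO the changes were -0.33, -0.36 and -0.16 at 1, 2 and 6 h, none called (adjusted p = 0.152 to 0.513), and 0.15, 0.14 and 0.48 with median-of-ratios scaling. When the 5 libraries were left out those at 1 and 6 h were -0.16 and 0.09, and that at 2 h was -0.89 ± 0.09 (adjusted p = 8.4e-10) and -0.05 with median-of-ratios scaling as well, and leaving out dKO 2 h replicate 2 or 4 alone brought the call in RPKM (0.0454 and 0.046). Between the genotypes Mcl1 was called at no time in RPKM with all libraries. Without the 5 it was called lower in dKO at 1 h (-0.28 ± 0.07, limma adjusted p = 0.00299, against -0.47 ± 0.22 and 0.195 with all libraries). With median-of-ratios scaling as well, that change was -0.15 (adjusted p = 0.0664), and Mcl1 was higher in dKO at 2 h (0.20, adjusted p = 0.034) and 6 h (0.25, adjusted p = 0.00277). With all libraries its change was 0.58 ± 0.22 at 2 h (adjusted p = 0.0876). Mcl1 was called there without dKO 2 h replicate 1 (0.0433) or replicate 3 (0.0113), the 2 libraries of that group nearest to their own time.

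Bcl2 (mm9 chromosome 1, 108434756 to 108610867), the founding pro-survival gene, was the lowest member and fell with LPS in both genotypes. In dKO it had 2.99, 1.81, 2.43 and 3.38 RPKM at 0 h and 0.307, 0.41, 0.465 and 0.743 RPKM at 6 h. In WT it had 2.59, 2.62, 2.44 and 2.45 RPKM at 0 h and 0.369, 0.385, 0.360 and 0.385 RPKM at 6 h. All 4 libraries at 6 h lay below all 4 at 0 h in each genotype. The WT change was -0.29, -0.84 and -1.79 at 1, 2 and 6 h (± 0.26 each, limma adjusted p = 0.342, 0.00494 and 1.39e-06), where median-of-ratios scaling gave 0.10, -0.21 and -1.27, with the call at 2 h lost (adjusted p = 0.362), and quantile normalization turned the change at 2 h to 0.14. In dKO it was -0.78, -1.20 and -1.68 (adjusted p = 0.0181, 0.00353 and 7.57e-06), and -0.75, -1.51 and -1.94 without the 5 libraries. With median-of-ratios scaling it was -0.41, -0.86 and -1.23, with the call at 1 h lost (adjusted p = 0.134). That call was also lost without dKO 0 h replicate 1 (0.057), 0 h replicate 4 (0.0694) or 1 h replicate 2 (0.0907).

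At 1 and 2 h without the 5 libraries, Bcl2 was lower in dKO. It had 1.38, 1.68 and 1.55 RPKM in dKO at 1 h, against 1.8, 2.21, 1.97 and 1.93 RPKM in WT, and 0.697 and 0.694 RPKM in dKO at 2 h, against 1.18, 1.26, 1.14 and 1.20 RPKM in WT. The log2 changes were -0.28 ± 0.09 and -0.50 ± 0.11 (limma adjusted p = 0.0206 and 0.000731), and -0.18 and -0.44 with median-of-ratios scaling as well (adjusted p = 0.138 and 0.00182). With all libraries they were -0.46 and -0.33, not called (adjusted p = 0.302 and 0.406), and leaving out dKO 2 h replicate 2 alone brought the call at 2 h (0.00736). At these levels the added 0.5 RPKM shrinks the fold.

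Among the BH3-only genes, Bcl2l11 (mm9 chromosome 2, 127951774 to 127988283) codes for BIM. At 0 h it had 25.0, 62.6, 25.5 and 22.9 RPKM in dKO, against 24, 25.6, 25.2 and 22.8 RPKM in WT. At 1 h it had 69.2, 37.9, 72.2 and 68.8 RPKM in dKO, against 78.3, 72.7, 82.8 and 81.3 RPKM in WT. The peak came at 1 h in both genotypes, and replicate 2 of dKO stood apart at both times. At 2 h the libraries had 36.7, 20.0, 36.1 and 12.2 RPKM in dKO, against 57.2, 55.6, 65.0 and 62.6 RPKM in WT, and at 6 h 16.5, 16.3, 16.4 and 30.5 RPKM in dKO, against 22.6, 25.2, 27.5 and 21.2 RPKM in WT. Every dKO library at 2 h lay below every WT library, and at 6 h all but replicate 4, nearest to 2 h, did so.

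Bcl2l11 was lower in dKO at 2 h, with a log2 change of -1.31 ± 0.29 with all libraries (limma adjusted p = 0.00218) and -0.71 ± 0.08 without the 5 (adjusted p = 3.04e-07). At 6 h it was called lower without the 5 alone (-0.53 ± 0.07, adjusted p = 1.63e-06, against -0.32 ± 0.29 with them). Its WT response was 1.67, 1.28 and -0.02 at 1, 2 and 6 h (± 0.29 each, adjusted p = 0.00015, 0.00026 and 0.947). The dKO response without the 5 was 1.5, 0.56 and -0.56, with differences of -0.17, -0.72 and -0.54 from WT (adjusted p = 0.587, 0.00014 and 0.00043), while with all libraries those at 1 and 6 h were -0.72 and -0.65 (1 and 0.773). The sign of the response at 6 h rests on the scale, as median-of-ratios scaling gave 0.65 in WT and, without the 5, 0.18 in dKO. With all libraries the dKO response was 0.95, -0.37 and -0.68 (adjusted p = 0.0122, 0.254 and 0.0346). The first of these was lost without dKO 0 h replicate 4 (0.0546) and the last without 0 h replicate 2 (0.231) or 6 h replicate 1, 2 or 3 (0.0818 to 0.085). The difference at 2 h with all libraries was -1.65 ± 0.40 (adjusted p = 0.0738), called without dKO 0 h replicate 4 (0.0462), 2 h replicate 1 (0.0364) or 2 h replicate 3 (0.0215). Each of these libraries lay nearest to its own time, so leaving it out gave more weight to those nearest to another.

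Pmaip1, which codes for NOXA, rose early with LPS, and its largest genotype difference was at 0 h without the 5 libraries but at 2 h with them. At 0 h it had 12.0, 53.7, 11 and 9.37 RPKM in dKO, against 21.9, 20.7, 20.4 and 18.9 RPKM in WT. At 1 h it had 70.4, 36.6, 60.2 and 60.4 RPKM in dKO, against 76.1, 75.8, 64.4 and 73.2 RPKM in WT. The 3 dKO libraries both labelled 0 h and nearest to 0 h lay below all WT libraries at 0 h, while the groups overlapped at 1 h. At 2 h the values were 42.2, 10.4, 38.7 and 14.1 RPKM in dKO, against 67.4, 61.7, 53.3 and 47.8 RPKM in WT, and at 6 h 20.7, 15.2, 14.3 and 28.9 RPKM in dKO, against 22.7, 18, 18.2 and 19.9 RPKM in WT.

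The log2 change of Pmaip1, dKO minus WT, without the 5 libraries was -0.90 ± 0.12 at 0 h (limma adjusted p = 2.25e-06) and -0.49 ± 0.13 at 2 h (adjusted p = 0.00567), and it was not called at 1 and 6 h (adjusted p = 0.224 and 0.0919, or 0.607 and 0.953 with all libraries). With all libraries it was -0.33 ± 0.39 at 0 h (adjusted p = 0.652) and -1.34 ± 0.39 at 2 h (adjusted p = 0.0222). The call at 2 h was lost without WT 2 h replicate 1 (0.064), WT 2 h replicate 2 (0.0551), dKO 2 h replicate 2 (0.0932) or dKO 2 h replicate 4 (0.0698). The WT response was 1.8, 1.46 and -0.06 at 1, 2 and 6 h (± 0.39 each, adjusted p = 0.00105, 0.00153 and 0.897). The dKO response was 2.51, 1.86 and 0.60 without the 5 libraries, larger than in WT by 0.72 ± 0.17 at 1 h and 0.66 ± 0.17 at 6 h (adjusted p = 0.0197 and 0.00602), against -0.05 ± 0.55 and 0.29 ± 0.55 with all libraries (1 and 0.999). With all libraries it was 1.75, 0.45 and 0.23, called at 1 h (adjusted p = 0.00496, against 0.311 and 0.603), and leaving out dKO 0 h replicate 2 alone brought the calls at 2 and 6 h (0.00661 and 0.0242).

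Bid (mm9 chromosome 6, 120843137 to 120866838), whose protein links death receptors to mitochondria after a caspase cuts it, fell with LPS. At 0 h it had 15, 2.80, 14.6 and 14.2 RPKM in dKO, against 15.3, 16.7, 16.4 and 14.8 RPKM in WT. At 1 h it had 1.93, 3.02, 2.38 and 2.80 RPKM in dKO, against 3.41, 4.07, 3.16 and 3.40 RPKM in WT. The fall left no overlap with 0 h in WT, and every dKO library at 1 h lay below every WT library. At 2 h the values were 2.64, 13.4, 3.50 and 8.56 RPKM in dKO, against 4.70, 4.19, 5.05 and 4.01 RPKM in WT, and at 6 h 8.09, 8.62, 8.09 and 3.04 RPKM in dKO, against 8.55, 8.05, 7.18 and 6.92 RPKM in WT.

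In WT, Bid fell by 2.03, 1.71 and 1.00 on the log2 scale at 1, 2 and 6 h (SE 0.39, limma adjusted p = 0.000452, 0.000364 and 0.0245), and by 1.55, 0.96 and 0.33 with median-of-ratios scaling, the last not called (adjusted p = 0.372). The call at 6 h in RPKM was lost without WT 6 h replicate 4 (adjusted p = 0.0506). In dKO the changes were -2.41, -2.09 and -0.79 without the 5 libraries, all called (-0.06 at 6 h with median-of-ratios scaling), and -1.78, -0.71 and -0.56 with them, called at 1 h alone (adjusted p = 0.00496, 0.112 and 0.193). Leaving out dKO 0 h replicate 2 alone brought the calls at 2 and 6 h (0.00193 and 0.00337), and leaving out 2 h replicate 2 that at 2 h (0.0122). Bid was lower in dKO at 1 and 2 h without the 5 (-0.49 ± 0.10 and -0.49 ± 0.12, adjusted p = 0.000519 and 0.00216), and -0.38 at both times with median-of-ratios scaling as well (adjusted p = 0.00603 and 0.0161). With all libraries the changes were -0.41 and 0.34, not called (adjusted p = 0.575 and 0.59).

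The effector Bax (mm9 chromosome 7, 52717065 to 52722268) fell in RPKM at 2 and 6 h of LPS in both genotypes, but relative to the median gene it was not lower at 2 h in either. In dKO it had 90.1, 79.5, 95.3 and 85.7 RPKM at 0 h and 41.3, 52.2, 40.4 and 70.2 RPKM at 6 h. In WT it had 111, 97.5, 102 and 105 RPKM at 0 h and 52.0, 46.0, 48.5 and 56.1 RPKM at 6 h. No library at 6 h overlapped those at 0 h, in either genotype. Its log2 change in WT was -0.43, -0.50 and -1.03 at 1, 2 and 6 h (± 0.14 each, limma adjusted p = 0.0121, 0.00173 and 3.91e-07), where median-of-ratios scaling gave 0.05, 0.29 and -0.34 (adjusted p = 0.827, 0.0712 and 0.0325). In dKO it was -0.31, -0.39 and -0.81 (adjusted p = 0.0608, 0.0174 and 1.4e-05), and -0.33, -0.42 and -1.02 without the 5 libraries. Median-of-ratios scaling gave 0.17, 0.11 and -0.17 in dKO with all libraries, none called (adjusted p = 0.301 to 0.528), against -0.27 at 6 h, called, once the 5 libraries were left out too (0.00255). The call at 2 h in RPKM was lost without dKO 0 h replicate 3 (0.0534) or 2 h replicate 4 (0.104). The call at 1 h came without dKO 0 h replicate 2 (0.0385). Between the genotypes Bax was called only at 6 h without the 5 libraries (-0.19 ± 0.07, adjusted p = 0.0409, against -0.02 ± 0.14 with them), and not with median-of-ratios scaling as well (-0.04).

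Bak1 (mm9 chromosome 17, 27156757 to 27165571), the other effector, fell in RPKM at 1 and 2 h of LPS in WT, though not with median-of-ratios scaling. In dKO it had 59.4, 38.4, 56.6 and 64.9 RPKM at 0 h and 36.8, 57.2, 35.5 and 67.9 RPKM at 2 h. In WT it had 66.9, 59.5, 61.1 and 61.6 RPKM at 0 h and 39.5, 39.6, 40.3 and 45.6 RPKM at 2 h. The WT groups did not overlap, and the 2 high dKO libraries at 2 h are those nearest to 0 h and 6 h. The WT change was -0.57, -0.59 and 0.12 (± 0.17 each, limma adjusted p = 0.0102, 0.00329 and 0.53), where median-of-ratios scaling gave -0.09, 0.20 and 0.80, with the last called (adjusted p = 3.4e-05). The dKO change was -0.42, -0.18 and 0.06 with all libraries and -0.51, -0.73 and 0.06 without the 5. Its call at 1 h (adjusted p = 0.0475) was lost without any 1 of 6 dKO libraries, which are 0 h replicates 1, 3 and 4 and 1 h replicates 1, 2 and 3 (0.0563 to 0.156), and its sign turned with median-of-ratios scaling (0.05). Bak1 was called between the genotypes at no time by limma, with all libraries (adjusted p = 0.34 to 0.879) or without the 5 (0.0953 to 0.897, with p under 0.05 before adjustment at 2 h alone).

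The ratio of Bax to Bak1 within a library lay on the other side of 1 at 6 h than at 2 h. It was 0.644 to 0.801 in dKO at 6 h without the 5 libraries and 1.84 to 1.87 in the 2 dKO libraries at 2 h. In WT it was 0.722 to 0.775 at 6 h and 1.68 to 1.83 at 2 h. Bax was above Bak1 in every WT library up to 2 h and below it in every WT library at 6 h. Between the genotypes the exact permutation p was 0.429 to 0.857 over the 4 times with all libraries and 0.133 to 0.343 without the 5.

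**Figure D3:**
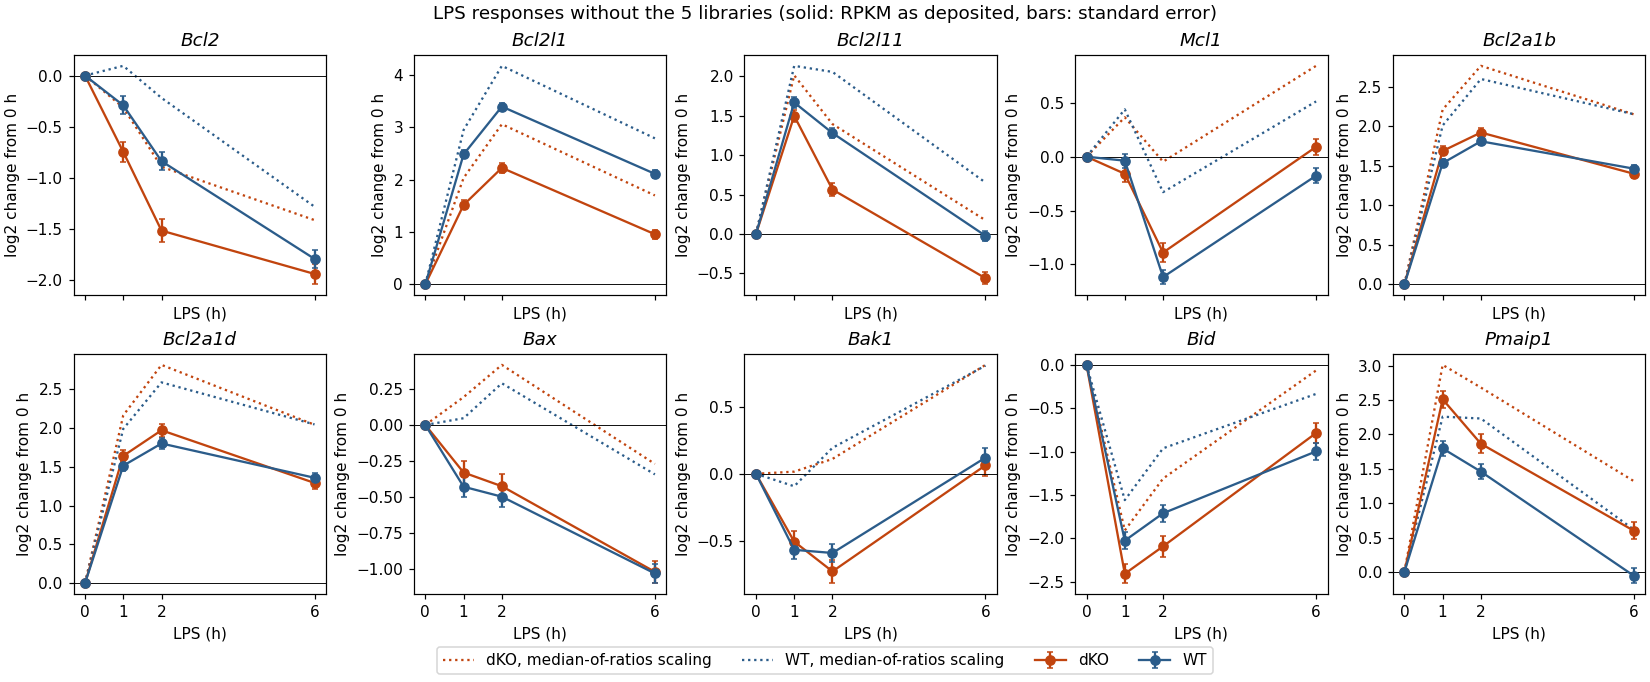
Log2 change from 0 h of each member over hours of LPS, dKO in orange and WT in blue, without the 5 libraries nearest to another time; solid lines are RPKM as deposited with standard errors, and dotted lines use median-of-ratios scaling. For Bcl2l1 the dKO line reaches 2.22 at 2 h and the WT line 3.40, while for Bax and Bak1 the dotted lines lie on the other side of 0 from the solid ones at 2 h.

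The balance of Bcl2l1 to Bcl2l11 RNA was looked at because BCL-XL binds BIM, though this ratio too was chosen after its values were seen. The ratio of their RPKM within a library, without the 5 libraries, averaged 1.11 ± 0.14, 1.12 ± 0.12, 3.54 ± 0.64 and 3.22 ± 0.26 in dKO at 0, 1, 2 and 6 h (SD, n = 3, 3, 2 and 3). In WT it averaged 1.15 ± 0.06, 2.02 ± 0.06, 5.01 ± 0.30 and 5.16 ± 0.74 (SD, n = 4). The dKO libraries lay within or around the WT range at 0 h and below every WT library at 1, 2 and 6 h. With all libraries the exact permutation test, two-sided, gave p = 0.429, 0.143, 0.0286 and 0.0286, or 0.571, 0.286, 0.0857 and 0.0857 adjusted over the 12 tests. Without the 5, 3 or 2 libraries against 4 cannot give p under 0.0571 or 0.133, and those smallest values were reached at 1, 2 and 6 h (0.171, 0.229 and 0.171 adjusted over 12 tests).

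**Figure D4:**
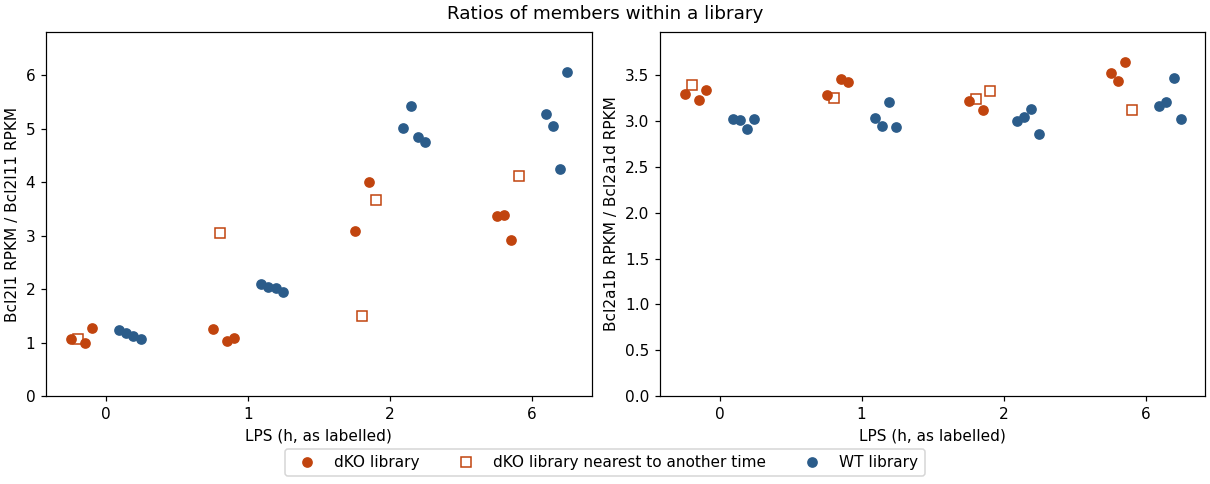
Ratio of Bcl2l1 to Bcl2l11 RPKM (left) and of Bcl2a1b to Bcl2a1d RPKM (right) in each library by hours of LPS as labelled, on linear axes from 0; filled orange points are dKO, open squares the 5 dKO libraries nearest to another time, and blue points WT. The left ratio lies near 1 at 0 h in both genotypes and is lower in filled dKO points than in WT from 1 h on, and the right ratio stays between 2.86 and 3.64.

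The rest of the death pathway was read from 11 lists of 54 genes, of which 48 were tested; Bcl2l10, Bik, Hrk, Bcl2l15, Cycs and Fasl were below the filter. With all libraries 1, 3, 4 and 7 of the 48 were called between the genotypes at 0, 1, 2 and 6 h, or 2.08%, 6.25%, 8.33% and 14.6%, against 6.84%, 10.9%, 12.4% and 14.8% of all tested genes. Without the 5 libraries 12, 19, 18 and 28 were called. In WT, 7, 8 and 13 of the 48 rose and 15, 30 and 22 fell at 1, 2 and 6 h of LPS, where 6.84%, 11.2% and 14.9% of all tested genes rose and 45.5%, 68.5% and 60.9% fell. In WT these were 45.8%, 79.2% and 72.9% of the lists, against 52.3%, 79.7% and 75.8% of all tested genes. Between the genotypes without the 5 libraries the shares were 25%, 39.6%, 37.5% and 58.3%, against 26.2%, 39.2%, 33.1% and 46.9% of all tested genes.

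Other family genes followed their class in part. Bcl2a1a, a further A1 copy, rose in WT at 2 h (1.66 ± 0.29, limma adjusted p = 2.13e-05) to 233 RPKM, against 73.4 RPKM at 0 h, and Bcl2a1c rose by 1.43 ± 0.30. Bcl2a1a was also lower in dKO at 2 h (-0.94 ± 0.29, adjusted p = 0.0303; -0.29 without the 5 libraries), a call lost with median-of-ratios scaling (adjusted p = 0.0712, or 0.163 without the 5 as well). Bcl2l2, which codes for pro-survival BCL-W, fell in WT at 2 h (-0.56 ± 0.14), but was at 0.20 and not called with median-of-ratios scaling (adjusted p = 0.104). Of the other BH3-only genes, Bmf, whose protein is held on the cytoskeleton, fell in WT to 6.15 RPKM at 2 h, against 24.6 RPKM at 0 h (-1.92 ± 0.37, adjusted p = 5.17e-05; -1.15 with median-of-ratios scaling). It was lower in dKO at 6 h, with 5.71 RPKM against 13.3 RPKM in WT (-1.19 ± 0.37, adjusted p = 0.0258; -0.99 without the 5). Bbc3, which codes for PUMA, rose in WT at 1 h (1.01 ± 0.39, adjusted p = 0.0349), and Bad, whose product binds BCL-XL and BCL-2, fell at 2 h (-0.98 ± 0.22; -0.21 and not called with median-of-ratios scaling, adjusted p = 0.156). Once the 5 libraries were left out, Bbc3 was higher in dKO at 1 and 2 h (0.43 and 0.70, limma adjusted p = 0.0019 and 6.39e-05). With all libraries these changes were 0.52 and -0.19, not called (adjusted p = 0.468 and 0.774). Bok, a BAX relative, fell in WT at 6 h (-1.54 ± 0.28) to a mean of 0.0529 RPKM, against 1.13 RPKM at 0 h. Of the divergent genes, Bcl2l12 and Bcl2l13 fell in WT at 6 h (-1.83 ± 0.31 and -0.95 ± 0.15; -1.20 and -0.32 with median-of-ratios scaling), and Bcl2l14 was lower in dKO at 1 h (-1.03 ± 0.22, adjusted p = 0.00232; -1.04 without the 5).

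Downstream of the pores, Casp9, the initiator caspase of the apoptosome, fell in WT at 2 h to 1.83 RPKM, against 17.3 RPKM at 0 h (-2.95 ± 0.45, limma adjusted p = 7.03e-06). Casp6, an executioner caspase, fell at 6 h (-2.07 ± 0.32), while Apaf1, the scaffold of the apoptosome, rose (0.88 ± 0.22; 1.54 with median-of-ratios scaling). Of the released factors, Htra2, a serine protease, rose in WT at 6 h (1.33 ± 0.17; 2.01 with median-of-ratios scaling) and was lower in dKO at that time (-0.52 ± 0.17, adjusted p = 0.0355; -0.38 without the 5), a call lost with median-of-ratios scaling (-0.35, adjusted p = 0.336, or -0.24 and 0.0911 without the 5 as well), while Aifm1, which codes for the flavoprotein AIF, fell at 6 h (-1.59 ± 0.19; -0.92 with median-of-ratios scaling) and Diablo, whose product blocks inhibitors of apoptosis, at 2 h (-1.05 ± 0.17; -0.28 with that scaling). Of the inhibitors of apoptosis, Birc3 and Birc2 rose in WT at 6 h (1.36 ± 0.23 and 1.16 ± 0.24; 2.04 and 1.83 with median-of-ratios scaling), and Birc5, which codes for survivin and is made mainly by dividing cells, fell (-3.19 ± 0.37) and was lower in dKO at 1 h (-1.27 ± 0.37, adjusted p = 0.0226; -1.06 without the 5). In the death receptor list, Cflar, which codes for the caspase-8 inhibitor FLIP, rose in WT at 2 h to 130.1 RPKM, against 17.4 RPKM at 0 h (2.87 ± 0.49, adjusted p = 1.63e-05). Fadd, the adaptor of death receptors, fell at 2 h (-1.58 ± 0.31; -0.89 with median-of-ratios scaling), and Ripk1, a kinase gene, fell at 1 h (-0.69 ± 0.14; -0.22 and not called with that scaling, adjusted p = 0.254), and Tnfrsf1a, a TNF receptor, was higher in dKO at 6 h (0.32 ± 0.10, adjusted p = 0.0347; 0.22 without the 5; adjusted p = 0.0622 with median-of-ratios scaling).

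Among genes whose products act on family members, Foxo3, a transcription factor that can drive Bcl2l11, fell in WT at 2 h to 0.986 RPKM, against 11.7 RPKM at 0 h (-3.04 ± 0.42, limma adjusted p = 4.06e-06). It was higher in dKO at 2 h (1.58 ± 0.42, adjusted p = 0.0116; 0.65 without the 5 libraries, adjusted p = 0.00104). Ddit3, which codes for the stress factor CHOP, fell in WT at 2 h (-1.21 ± 0.22; -0.44 with median-of-ratios scaling, adjusted p = 0.0672) and was higher in dKO at that time (0.96 ± 0.22, adjusted p = 0.00421; 0.52 without the 5). Atf4, another stress factor, fell in WT at 6 h (-0.69 ± 0.13), though it was at -0.01 and not called with median-of-ratios scaling (adjusted p = 0.968), and was higher in dKO (0.40 ± 0.13, adjusted p = 0.0332; 0.34 without the 5). Dynll1 and Dynll2, dynein light chains that tether BIM and BMF, fell in WT at 6 h and 2 h (-1.23 ± 0.18 and -1.06 ± 0.20; -0.55 and -0.29 with median-of-ratios scaling), and Dynll2 was lower in dKO at 6 h (-0.63 ± 0.20, adjusted p = 0.0284; -0.55 without the 5). Fbxw7, of a ubiquitin ligase for MCL-1, fell in WT at 2 h (-0.94 ± 0.21; -0.25 and not called with median-of-ratios scaling, adjusted p = 0.16). Of the docking genes, Vdac1, Vdac2 and Mtch2, outer membrane proteins, fell in WT at 6 h (-1.10 ± 0.13, -0.87 ± 0.13 and -1.12 ± 0.13; -0.41, -0.18 and -0.44 with median-of-ratios scaling, that of Vdac2 not called, adjusted p = 0.09), and Vdac1 was higher in dKO at 6 h (0.45 ± 0.13, adjusted p = 0.0199; 0.36 without the 5).

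Genes with the most similar course were ranked for each member by Pearson's r of log2(RPKM + 0.5) over the 32 libraries, which share their LPS times and library scaling. Bcl2l1 was closest to Mtmr12 (r = 0.950) and Nipal1 (0.947), Bcl2l11 to Itpkc (0.956) and Klf7 (0.954), and Pmaip1 to Rasgef1b (0.949) and Bcl10 (0.947). Bcl2a1b and Bcl2a1d were closest to each other (r = 0.993), as copies that may share reads, and next to Rabgef1 (0.987) and Tnfsf4 (0.984). Bcl2 was closest to Cd300a (0.986) and Nbeal2 (0.980), Mcl1 to Anks1 (0.949) and Senp7 (0.943), and Bid to Vhl (0.980) and Tfam (0.975). Bax was closest to Nme1 (0.973) and Brp44 (0.969), and Bak1 to Cog4 (0.970) and Rab5c (0.966). Within the family, Bcl2l11 and Pmaip1 had r = 0.917, Bcl2l1 and Bcl2a1d 0.924, and Bcl2a1b and Bid -0.83.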

How the data were processed

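RNA was extracted with Trizol and 32 libraries were made with an Illumina TruSeq RNA kit, per the labels' protocols. The authors deposited 1 table per library with an RPKM value for each gene, and CASAVA 1.8.2 and the mouse build mm9 are named in the submitters' processing notes. The authors also deposited a column of whole numbers without a header, read here as a coverage signal in aligned bases because its ratio to RPKM is constant for each gene up to a factor per library. It was used for depth alone. How multiply mapped reads were counted is not given in the sources used here. Of 22308 entries, 92 spike-in controls were left out. RPKM are not counts, so values were tested as log2(RPKM + 0.5) with limma 3.58.1 (R 4.3.3). The fit had 8 group means and a trended prior, over all 32 libraries, and used genes of at least 1 RPKM in 4 libraries. P-values were adjusted by Benjamini and Hochberg over all 11154 genes within each of 13 contrasts and called below 0.05. Values after ± are standard errors unless SD is stated, and fold changes on this scale are too small for low genes.

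Alternatives were other added constants (0.1 and 1), no filter or one of 5 RPKM, median-of-ratios and quantile scaling, a fit of the contrast's groups alone, a replicate block, leaving out each library, and leaving out the 5 libraries nearest to another time. The 5 libraries were found from the tested values themselves, and leaving them out together with median-of-ratios scaling was chosen after seeing the data. The members and lists were chosen with earlier results of these data known. List genes were named by rule: per list, up to 3 called genes of smallest adjusted p in WT under LPS and up to 3 between the genotypes. The genotype changes of Bbc3 are given outside this rule, while those of other list genes called only without the 5 libraries are not. Replicate numbers were not used as pairs in the main fit. Deviations of same-numbered dKO and WT libraries correlated above 0.1 in 1 of 16 cases. Those of same-numbered libraries of different times did so in 16 of 24 cases in WT (r = 0.021 to 0.241) and 5 of 24 in dKO. The dKO libraries were taken as labelled, the 5 nearest to another time among them, so the counts that involve dKO cannot decide on pairing. Fits were tested on simulated data. Sequences are from RefSeq and transcripts on GRCm38, handled with Biopython 1.88, and gene positions are those of the files (mm9).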

Additional observations from a re-analysis of the deposited data

Results flagged for a closer look

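Of 80 groups of 4 libraries, 10 members in 8 groups, 13 held a library far from its 3 companions by Dixon's test, where chance gives about 1 in 20 groups. The dKO library at 0 h replicate 2 stood apart in 6 of them, with 67.0 RPKM for Bcl2l1, 62.6 for Bcl2l11, 694 for Bcl2a1b, 204 for Bcl2a1d, 2.80 for Bid and 53.7 for Pmaip1. The dKO library at 1 h replicate 2 did so for Bcl2l11 (37.9 RPKM) and Mcl1 (108.7 RPKM). The dKO library at 6 h replicate 4 did so for Bcl2l1 (125.8 RPKM), Bcl2l11 (30.5 RPKM), Bak1 (39.9 RPKM) and Bid (3.04 RPKM). These 12 all fall on libraries nearest to another time than their label. The last is Bak1 in WT at 2 h replicate 4, with 45.6 RPKM. The 10 members share the same 32 libraries, so the 80 groups are not independent checks and 13 cannot be set against 1 in 20.

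The LPS response of Bcl2l1 at 2 h differed between the genotypes by the test of the difference itself, with a log2 difference of -2.39, dKO minus WT, in all libraries (adjusted p = 0.0211). The difference was -1.17 without the 5 libraries (adjusted p = 1.01e-06). The call was lost with a replicate block (adjusted p = 0.0951), with only the groups of the contrast (0.311), and without WT 0 h replicate 4 (0.0559), WT 2 h replicate 3 (0.0525) or dKO 0 h replicate 2 (0.0609).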

How the results depend on the processing

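Over the 4 times, 3 member calls between dKO and WT were made with all libraries, 6 with quantile normalization, 21 without the 5 libraries nearest to another time, and 16 with median-of-ratios scaling as well. Per time, 6.84% to 14.8% of all tested genes were called with all libraries, 26.2% to 46.9% without the 5, and 22.8% to 42.6% with both changes. Such shares are not given for quantile normalization, the contrast's groups alone, the replicate block or single libraries left out. They are also not given for the difference of responses with both changes. Counts from those fits thus cannot be read as a result about the family. The 19 calls under LPS in dKO became 11 when only the groups of the contrast were fitted. In the difference of responses, 0.0359% to 0.923% of all tested genes were called per time with all libraries and 1.8% to 20.3% without the 5. The 1 member call there became 8 without the 5 libraries, 9 with median-of-ratios scaling as well, 0 with only the groups of the contrast and 0 with a replicate block. That block left 3 calls between the genotypes, 24 under LPS in WT and 17 in dKO, ending the calls of Bcl2l1 in the difference at 2 h (adjusted p = 0.0951) and of Bcl2l11 at 6 h and Bak1 at 1 h in dKO (0.0619 and 0.0801). The numbers were not taken as pairs in the main fit. Of 32 libraries, 11 correlated best with their own number in the other genotype. That count involves the 5 dKO libraries nearest to another time and cannot decide on pairing. Same-numbered WT libraries of different times correlated above 0.1 in 16 of 24 pairs (r = 0.021 to 0.241 over all 24). What they share was not tested. Leaving out 1 library gave 2 to 7 calls between the genotypes, 15 to 23 under LPS in dKO, 23 to 24 in WT and 0 to 2 in the difference. Signs of log2 changes called in either fit turned as follows, and the cause was not tested. Others, called in neither, turned in 6 of 130 changes with quantile normalization, 19 with median-of-ratios scaling, 15 without the 5 libraries, and 19 with both. Quantile normalization gave 0.14 for Bcl2 at 2 h in WT. Median-of-ratios scaling gave 0.51 and 0.48 for Mcl1 at 6 h in WT and dKO, 0.049, 0.29 and 0.11 for Bax at 1 and 2 h in WT and 2 h in dKO, and 0.20 and 0.052 for Bak1 at 2 h in WT and 1 h in dKO. Leaving out the 5 libraries gave 0.56 for Bcl2l11 at 2 h in dKO, -0.29 and -0.49 for Bcl2a1b at 0 h and Bid at 2 h between the genotypes, and 0.72 for the Pmaip1 difference at 1 h. With median-of-ratios scaling as well, Bcl2l11 had 0.65 at 6 h in WT and 1.40 and 0.18 at 2 and 6 h in dKO. Mcl1 then had 0.25 at 6 h between the genotypes, 0.44 and 0.51 at 1 and 6 h in WT, and 0.37 and 0.84 in dKO. Bax had 0.047 and 0.29 at 1 and 2 h in WT and 0.19 and 0.42 in dKO, and Bak1 had 0.19 at 2 h in WT and 0.016 at 1 h in dKO. Bcl2a1b and Bid between the genotypes had -0.21 at 0 h and -0.38 at 2 h, and Pmaip1 had 0.61 at 6 h in WT and 0.75 in the difference at 1 h. The other added constants changed no direction or call of any member, and a filter of 5 RPKM changed none of the 9 members that passed it, Bcl2 being below it. RPKM carry no counts, so no counting error could be given.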
